A study of Rattus norvegicus with 20 samples.

Results

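The transcripts of 10 genes of insulin and insulin-like growth factor (IGF) signalling were followed in rat fat under mild food restriction: the insulin receptor Insr, the docking protein Irs1, the PI3-kinase regulatory subunit Pik3r1, the kinase Akt2, the glucose transporter Slc2a4, the growth factor Igf1, its receptor Igf1r, and the binding proteins Igfbp3, Igfbp5 and Igfbp6. They were chosen by name and are 10 of the 10411 genes that the platform annotation names. The annotation gave them 18 probe sets, sets of oligonucleotide probes summarised as 1 signal each, and each gene is represented by its brightest one on average. Of the 10 genes, 8 passed the signal limit for testing. Irs1 (mean signal 15.1) and Igf1r (21.3) were under the limit of 22.8, and Insr (29.6) and Pik3r1 (30.2) were just above it.

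Insulin binds its receptor on the fat cell, and the receptor phosphorylates docking proteins that recruit PI3-kinase. PI3-kinase activates Akt kinases, and in fat and muscle the Akt2 form sends vesicles carrying the Slc2a4 transporter to the cell surface, where glucose enters. IGF-1, made in liver and locally in many tissues, signals through the related receptor Igf1r, and IGF-binding proteins hold it in the blood and tissue fluid and set how much reaches the receptor. In fasting insulin falls, Akt activity drops, and FoxO transcription factors enter the nucleus, where they raise transcripts of several genes of the pathway itself.

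The samples were adipose tissue of male Wistar rats (visceral white fat in the study's methods), an outbred strain without engineered alleles, 6 weeks old when the feeding began. The daily intake of rats fed freely for 1 week or 1 month was recorded. Groups of 5 rats were given that intake (control) or 5, 10, 20 or 30% less, for 1 week or 1 month. All were fasted for 16 h before the tissue was taken. Each of the 10 groups is a single pool of RNA from 5 rats, whose cRNA was split over 2 one-colour Affymetrix Rat Expression Set 230 chips, so the 2 chips of a pool show technical error only, and the differences between rats cannot be seen.

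The values are MAS5 signals, compared on the log2 scale as the mean of a pool's 2 chips, and the signals given below for a pool are geometric means of the 2 chips. The duplicate chips correlated at r = 0.971 to 0.982 over the tested probe sets, and the median technical error (SD) of a difference between pools was 0.17 on the log2 scale. The chips of a replicate number and duration had been scaled to a common mean that differed between the sets (77.2 and 111 at 1 week), so single chips were set only against the control chip of the same number. Pancreas genes stood high in 2 pools, the control at 1 week (mean log2 signal of 4 tested acinar markers 12.4) and the 30% group at 1 week (7.36), against 3.86 to 4.73 in the other 8. In a tissue sample, fewer cells of a type and less RNA per cell cannot be told apart.

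Insr and Akt2 rose under restriction. Over the 8 restricted against the 2 control pools, Insr was higher by 0.74 ± 0.17 (log2, SE; 1.66-fold, adjusted p = 0.0309, limma) and Akt2 by 0.54 ± 0.12 (1.45-fold, adjusted p = 0.0283, limma). These were 2 of the 8 tested members, where 5.93% of all 9520 tested probe sets were called, 413 higher and 152 lower. With each chip centred on its median, which raised the median of all differences by 0.12, 398 were higher and 71 lower, Insr was at 0.85 and Akt2 at 0.66, and both passed. Both genes were also higher than the same-numbered control chip on all 16 restricted chips, as were 6.62% of the tested probe sets. Igfbp3 was the 1 tested member below control on all 16 chips, as were 5.56% of the probe sets. Both control pools of Insr (18.6 and 20.8) were under the signal limit of 22.8, and its 8 restricted pools were above it. Insr thus reached the limit only through its restricted pools, and without that limit it did not pass. The 8 restricted pools share 2 control pools. Without the control at 1 week Insr was at 0.59 and Akt2 at 0.47, and without the control at 1 month at 0.88 and 0.61. Either fit leaves 1 control, and both genes missed the threshold there, as did most probe sets that passed with all pools. Both also missed the threshold without the 20% pool at 1 week (0.71, adjusted p = 0.0634, and 0.52, adjusted p = 0.0598, limma) or at 1 month (0.72, adjusted p = 0.0588, and 0.53, adjusted p = 0.0547, limma). In those fits 208 and 216 of the 9520 probe sets passed, against 565 with all pools. Without the 5% pool at 1 month 4 members passed, Igfbp3 and Igfbp6 being added, and 1980 probe sets passed in all.

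The promoters of the genes that lead the results are shown because FoxO factors carry part of the effect of insulin on transcription. The 250 bases before the RefSeq transcription start (build GRCr8) are given 5′ to 3′ on the gene's strand for Insr at chr12:6128804-6129053 (minus strand), Akt2 at chr1:92021667-92021916 (plus strand), Igfbp3 at chr14:86277945-86278194 (minus strand) and Igfbp6 at chr7:135154669-135154918 (plus strand). Capitals mark the forkhead core GTAAACA on either strand. The Insr and Akt2 windows lie inside the span of the annotated gene, upstream of the start that the table uses.
Insr: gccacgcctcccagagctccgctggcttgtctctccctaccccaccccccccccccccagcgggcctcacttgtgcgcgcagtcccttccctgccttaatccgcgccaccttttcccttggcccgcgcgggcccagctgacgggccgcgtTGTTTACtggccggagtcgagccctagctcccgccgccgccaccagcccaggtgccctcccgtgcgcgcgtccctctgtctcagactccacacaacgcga
Akt2: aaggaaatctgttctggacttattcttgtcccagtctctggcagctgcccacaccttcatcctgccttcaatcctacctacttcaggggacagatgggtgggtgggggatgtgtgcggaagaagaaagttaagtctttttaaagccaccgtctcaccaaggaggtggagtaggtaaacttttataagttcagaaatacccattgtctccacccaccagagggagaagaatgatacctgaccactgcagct
Igfbp3: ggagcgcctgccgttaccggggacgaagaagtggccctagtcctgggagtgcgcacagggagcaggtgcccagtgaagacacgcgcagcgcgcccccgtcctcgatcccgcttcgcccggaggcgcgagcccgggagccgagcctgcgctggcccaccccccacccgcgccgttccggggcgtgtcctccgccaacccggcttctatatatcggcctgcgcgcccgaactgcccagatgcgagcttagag
Igfbp6: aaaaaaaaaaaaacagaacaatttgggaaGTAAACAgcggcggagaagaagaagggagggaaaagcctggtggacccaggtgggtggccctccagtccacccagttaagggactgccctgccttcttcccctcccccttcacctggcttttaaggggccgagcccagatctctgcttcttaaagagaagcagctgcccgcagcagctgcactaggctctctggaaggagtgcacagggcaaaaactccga

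Windows were found for 9 of the 10 genes, Slc2a4 being the gene without one. GTAAACA occurred in 2 of the 9, Insr, where the match is on the opposite strand and ends 94 bases before the start, and Igfbp6, where it ends 215 bases before the start. In all 3.21% of the 33469 windows in the table held it. The shorter AAACA, which lies inside GTAAACA, occurred in 4 of the 9 (Insr, Igf1, Igfbp5, Igfbp6) and in 47% of all windows. The glucocorticoid half-site AGAACA occurred in Akt2, Igf1 and Igfbp6 (17.5% of windows), the E-box CACGTG in Igf1r (5.59%) and CAGGTG in Insr, Igfbp3 and Igfbp6 (15.9%). The GC box GGGCGG occurred in Irs1, Pik3r1 and Igf1r (30.5%), TATAAA in Akt2 (12.9%), ATTGG in Pik3r1 (34%) and TGACGT in 0 of the 9 (6.95%). All 9 motifs were searched on both strands, and a match says only that the letters are present.

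Insr, the receptor tyrosine kinase that insulin binds, was read at 18.6 in the 1-week control and at 29.2, 39.6, 37.3 and 32.0 at 5, 10, 20 and 30% restriction. At 1 month the control was at 20.8 and the restricted pools at 30.3, 29.4, 34.0 and 31.8. Every restricted pool thus stood above both controls, and the step was already present at 5%. At 1 week the peak was at 10% (2.12-fold over control) and at 1 month at 20% (1.63-fold), and the levels did not climb further with dose. The slope per 10% of restriction over both durations was 0.18 ± 0.086 (log2, SE, adjusted p = 0.173, limma). Means of the restricted pools lay above control by 0.88 at 1 week and by 0.59 at 1 month, and the difference between durations was -0.29 ± 0.34 (adjusted p = 0.9998, limma), in a fit for which 0.021% of the probe sets were called. Insr was read by 1 probe set, at signals close to the testing limit, with both controls under it.

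Akt2, the kinase by which insulin drives glucose uptake in fat, was read at 169 in the 1-week control and at 237, 280, 276 and 242 at 5, 10, 20 and 30%. At 1 month the control was at 184 and the restricted pools at 245, 293, 274 and 215. All restricted pools stood above both controls, the 10% pool was the highest at each duration, and the 30% pool at 1 month was the lowest of the restricted pools. The excess over control in that pool was 0.22 on the log2 scale, 1.54 times the technical SD. The slope with dose was 0.088 ± 0.069 (adjusted p = 0.417, limma), and it ran from 0.024 without the control at 1 week to 0.17 without the 30% pool at 1 month, neither of which passed. The gene has 3 tested probe sets, whose pool values correlated at r = 0.876 to 0.941 over the 10 pools within duration. A second one was higher by 0.66 ± 0.11 (adjusted p = 0.0133, limma), and the third by 0.31 ± 0.12, which did not pass (adjusted p = 0.113, limma) and lay at 197 against 201 in the control at 30% and 1 month.

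**Figure D1:**
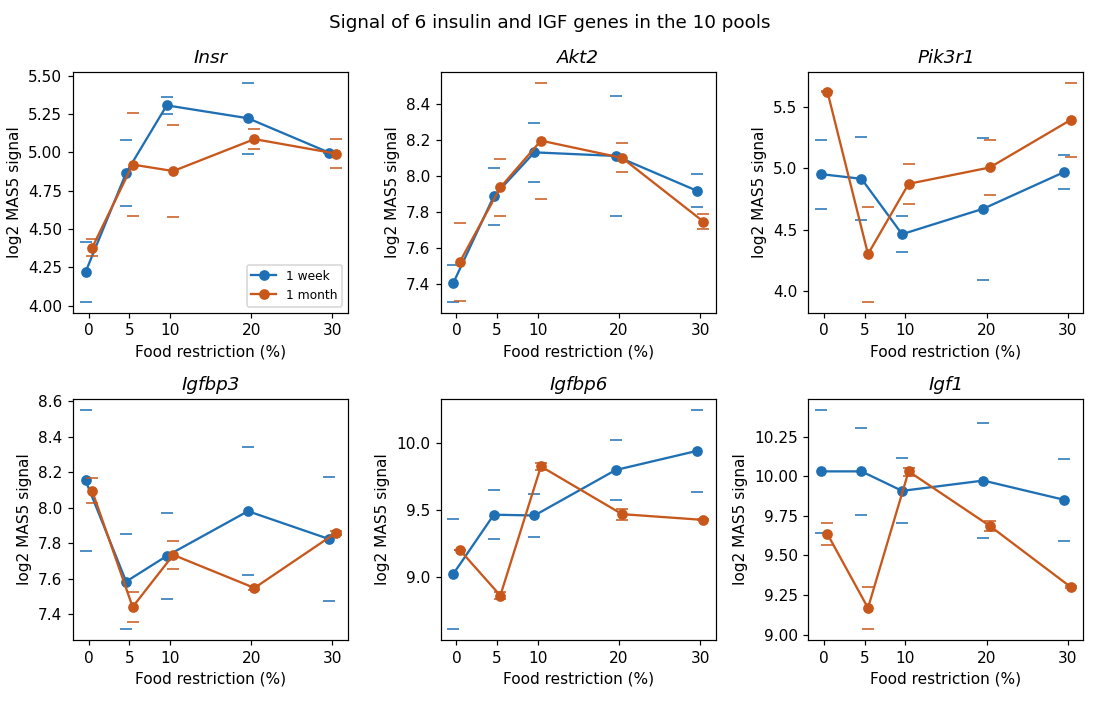
Log2 MAS5 signal of 6 genes against food restriction (%), for 1 week (blue) and 1 month (orange). Points are the pool means of 2 chips and short bars the single chips, which are spread widely at 1 week because the chip sets were scaled apart; Insr and Akt2 lie above both controls in all 8 restricted pools.

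The pool patterns of Insr and Akt2 correlated at r = 0.878 over the 10 pools once the mean of each duration was removed, a description over pools that share controls. Searched over 7113 genes, the patterns most like that of Insr were those of Isg20 (r = 0.967), Hsd17b11 (0.962) and Pik3ip1 (0.944). The product of Pik3ip1 restrains PI3-kinase. Those most like Akt2 were Zfp655 (0.988), Tbcel (0.987) and Mmd (0.974). These are the highest of 7113 values, each over 10 points.

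Markers of cell types differed in the same contrast. Of 10 adipocyte markers, 7 had a probe set and all were tested. Their mean log2 signal was 9.87 and 10.04 in the control pools and 10.16 to 10.57 in the restricted pools. Pparg, the master regulator of fat cell differentiation, was higher by 1.07 ± 0.17 (adjusted p = 0.00821, limma) and Lipe, the hormone-sensitive lipase, by 0.60 ± 0.11 (adjusted p = 0.0182, limma), and the other 5 did not pass. With the mean of the 7 markers as a covariate, an alternative chosen after the data were seen, Insr was at 0.73 ± 0.40 (adjusted p = 0.871, limma) and Akt2 at -0.031 ± 0.21 (adjusted p = 0.988, limma). In that fit 0 of the 9520 probe sets passed. The adipocyte mean was higher in all 8 restricted pools, so it and restriction cannot be told apart here. The mean of 8 tested lymphocyte markers was 7.83 and 7.79 in the controls and 3.63 to 7.71 in the restricted pools, and with it as a covariate Insr was at 0.73 (adjusted p = 0.142, limma) and Akt2 at 0.44 (adjusted p = 0.158, limma). With that covariate 63 probe sets passed in all, against 565 without it. All 8 lymphocyte estimates for restricted minus control were negative (-3.39 to -0.43), and 0 passed (limma, 5 at an unadjusted p under 0.05). Of 7 macrophage markers 6 were negative (median -0.38), and Aif1 (-1.11) and Lyz2 (-1.08) passed as lower. All 4 tested exocrine pancreas markers were negative (-4.40 to -2.59), as were the 1 tested islet marker (-1.26) and the 2 tested skeletal muscle markers (-0.0061 and -0.0037), and 0 passed (limma). The endothelial, smooth muscle and pericyte, mesothelial, and fibroblast and preadipocyte lists were mixed in sign. Of 8 endothelial markers 4 were positive (median 0.060), from -1.16 for Plvap, which did not pass (adjusted p = 0.0564, limma), to 0.94 for Gpihbp1, which did. Of 7 smooth muscle and pericyte markers 5 were positive (median 0.054), and Pdgfrb (0.66) passed. Of 6 mesothelial markers 4 were positive (median 0.32), while Krt18 (-0.85) passed as lower. The adjusted p of these 5 genes lay from 0.0187 to 0.0491 (limma). Of 10 fibroblast and preadipocyte markers 5 were positive and 0 passed (limma; 1 at an unadjusted p under 0.05). The calls of Insr and Akt2 were likewise lost without the 2 pools that held pancreas genes, at 0.59 for Insr and 0.47 for Akt2. There 1 control remained, so a lost call says little about these genes.

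Irs1, the docking protein that links the receptor to PI3-kinase, was read at 18.7 in the control at 1 week and at 13.1 to 18.8 in the restricted pools. At 1 month it was at 15.5 in the control and 18.9, 6.95, 13.4 and 17.9 at 5, 10, 20 and 30%. The groups overlapped, and all of these signals lie under the limit for testing. Pik3r1, which stabilises and holds back the catalytic subunit of PI3-kinase, was at 31.0 in the control at 1 week and 22.1 to 31.4 in the restricted pools. At 1 month its control stood highest of all 10 pools at 49.3, and the restricted pools were at 19.7, 29.3, 32.2 and 42.1. The order at 1 month thus ran upward from 5% to 30% with the control above all of them. Restricted minus control was -0.46 ± 0.26 (adjusted p = 0.253, limma) and the slope 0.041 ± 0.11 (adjusted p = 0.836, limma).

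Slc2a4, the insulin-responsive glucose transporter, was the steadiest member. Its pools ran from 481 (10%, 1 week) to 590 (30%, 1 week), a 1.23-fold range, with controls at 522 and 518. Restricted minus control was 0.055 ± 0.089 (adjusted p = 0.706, limma). Its second probe set ran otherwise. There the controls, at 275 and 266, each stood above the 4 restricted pools of their duration (219 to 268), with a difference of -0.16 ± 0.088 (adjusted p = 0.236, limma). The probe sets correlated at r = 0.308 over the 10 pools, so no direction can be given for this transcript.

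Igf1, the growth factor itself, was at 1045 in the control at 1 week and 1045, 960, 1004 and 923 in the restricted pools. At 1 month the control was at 795 and the restricted pools at 575, 1043, 824 and 630. The pools were close together at 1 week and scattered on both sides of the control at 1 month, with an SD of the 4 restricted pools of 0.078 and 0.39 on the log2 scale. Restricted minus control was -0.090 ± 0.17 (adjusted p = 0.753, limma), and with each chip centred on its median it was 0.027. Between durations Igf1 was at -0.39 ± 0.14 at 1 month relative to 1 week (unadjusted p = 0.0137, adjusted p = 0.116, limma), and 0 of the 8 tested members passed in that comparison, where 4.96% of the probe sets did. The second probe set of Igf1 was at -0.041 ± 0.11 there (adjusted p = 0.875, limma). Its controls were at 748 (1 week) and 770 (1 month), so the 2 probe sets did not show the same drop. All rats began at the same age, so time on the diet and age moved together between durations. The split between durations also depended on the scaling, with 315 probe sets higher and 157 lower as deposited, and 16 and 52 with each chip centred on its median. Igf1r, the receptor for IGF-1, ran from 14.2 to 28.5 with a mean under the limit, and its lowest signal was in the control at 1 month.

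Igfbp3, the main carrier of IGF-1 in the blood, was at 285 in the control at 1 week and 192, 212, 253 and 227 at 5, 10, 20 and 30%. At 1 month the control was at 274 and the restricted pools at 174, 213, 187 and 232. All 8 restricted pools were below both controls, and the 5% pool was the lowest at each duration. The difference of -0.41 ± 0.12 missed the threshold (adjusted p = 0.0664, limma), passed with quantile normalization (adjusted p = 0.0494, limma), and was -0.30 with chips centred on their medians (adjusted p = 0.232, limma). The second probe set was lower in 7 of 8 pools, at -0.25 ± 0.14 (adjusted p = 0.28, limma), and above its control at 30% and 1 month (190 against 171). The slope with dose was -0.022 ± 0.064 (adjusted p = 0.852, limma), and 0.024 with chips centred on their medians.

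Igfbp6, a binding protein that prefers IGF-2, had its highest signal in the 30% pool at 1 week. Its signals at that time were 519, 706, 703, 889 and 982 at 0, 5, 10, 20 and 30%. At 1 month they were 588, 464, 906, 708 and 687, with the 5% pool below control and the 10% pool the highest. The slope was 0.28 ± 0.097 per 10% at 1 week (unadjusted p = 0.0158, adjusted p = 0.171, limma) and 0.20 ± 0.070 over both durations (unadjusted p = 0.016, adjusted p = 0.0916, limma). A second probe set followed it at r = 0.965, with 422, 619, 636, 847 and 902 at 1 week. Without the 10% pool at 1 month the slope over both durations passed (0.21, adjusted p = 0.0132, limma), as it did without the 30% pool at 1 month (0.27, adjusted p = 0.0373, limma), and with any 1 of the other 8 pools left out it did not (adjusted p from 0.113 to 0.277). Without the 10% or the 30% pool at 1 month, 1921 and 1641 of the 9520 probe sets passed, against 895 with all pools. The slope of Igfbp6 passed under 4 of 22 alternatives and fell to 0.081 with the lymphocyte score as a covariate (adjusted p = 0.586, limma).

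Igfbp5, a binding protein abundant in connective tissue, was at 301 in the control at 1 week and 376, 298, 277 and 228 at 5, 10, 20 and 30%. At 1 month it was at 285 in the control and 215, 259, 285 and 189 in the restricted pools. The 30% pool was the lowest at each duration. The slope was -0.14 ± 0.054 per 10% (unadjusted p = 0.0225, adjusted p = 0.108, limma). The next brightest probe set had a slope of -0.090 ± 0.038 (adjusted p = 0.144, limma) and correlated with the first at r = 0.904.

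No tested member passed for the slope over both durations (0 of 8 by limma), against 9.4% of the probe sets. An unadjusted p under 0.05 (limma) was reached by 2 of the 8, and by 2869 of the 9520 probe sets. The count past the threshold was also 0 for the slope at 1 week (0.294% of the probe sets), the slope at 1 month (0.126%) and the difference of these slopes (0%, although 282 probe sets had an unadjusted p under 0.05). Over all probe sets 544 rose with dose and 351 fell, and 574 and 146 with each chip centred on its median.

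**Figure D2:**
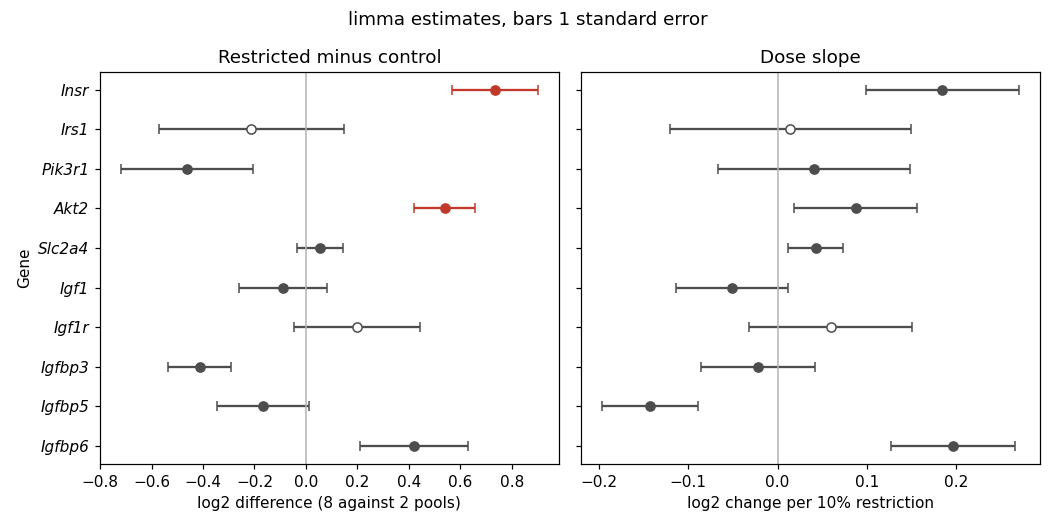
limma estimates for the 10 genes, as the log2 difference of 8 restricted against 2 control pools (left) and the log2 change per 10% of restriction over both durations (right), with bars of 1 standard error. Insr (0.74) and Akt2 (0.54) in red passed in the left panel, no gene passed in the right, and open points are the genes under the signal limit.

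Pool by pool, a member was counted as changed where both chips differed from their control chips in the same direction and the pool differed at least 1.5-fold, a count without a p-value. At 1 week these were 1 of 8 at 5% (Insr, against 8.96% of all probe sets), 2 at 10% (Insr, Akt2, against 14.5%), 3 at 20% (Insr, Akt2, Igfbp6, against 15.8%) and 2 at 30% (Insr, Igfbp6, against 21.1%), and all were higher. At 1 month there were 2 at 5% (Pik3r1 and Igfbp3, lower, against 5.82%), 3 at 10% (Akt2 and Igfbp6 higher, Pik3r1 lower, against 20%), 2 at 20% (Insr higher, Pik3r1 lower, against 16.5%) and 2 at 30% (Insr higher, Igfbp5 lower, against 13.5%). Insr was counted in 6 of the 8 pools, Akt2, Igfbp6 and Pik3r1 in 3 each, and Igf1 and Slc2a4 in 0. For Pik3r1 the technical SD of a difference was 0.38, against a median of 0.17 over the tested probe sets. Its counted differences at 5, 10 and 20% and 1 month were 3.48, 1.98 and 1.63 times that SD of 0.38.

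**Figure D3:**
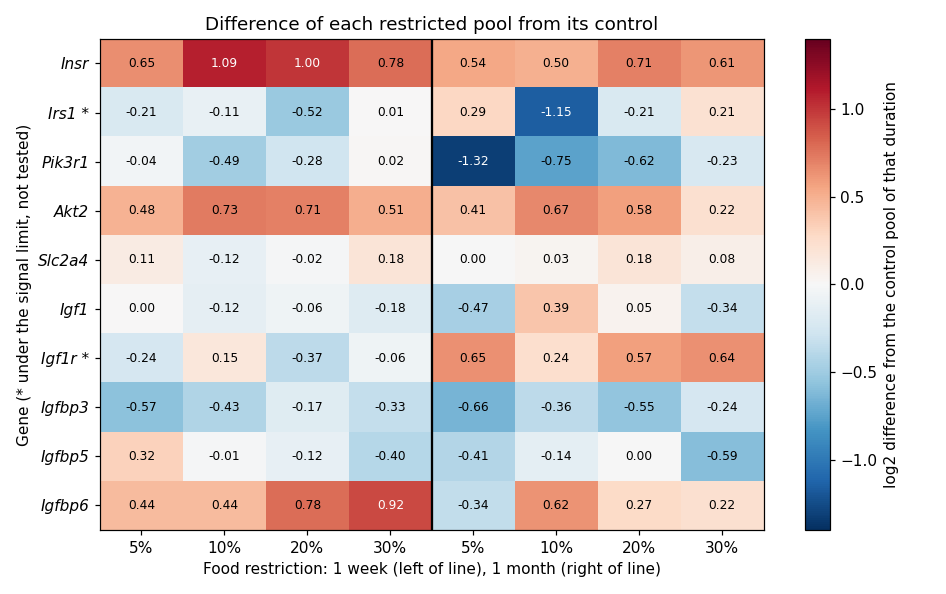
Log2 difference of each restricted pool from the control pool of its duration, for the 10 genes (rows) and 8 restricted pools (columns), red for higher and blue for lower. The rows of Insr and Akt2 are red throughout and that of Igfbp3 blue throughout, while the lowest value is -1.32 for Pik3r1 at 5% and 1 month.

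**Figure D4:**
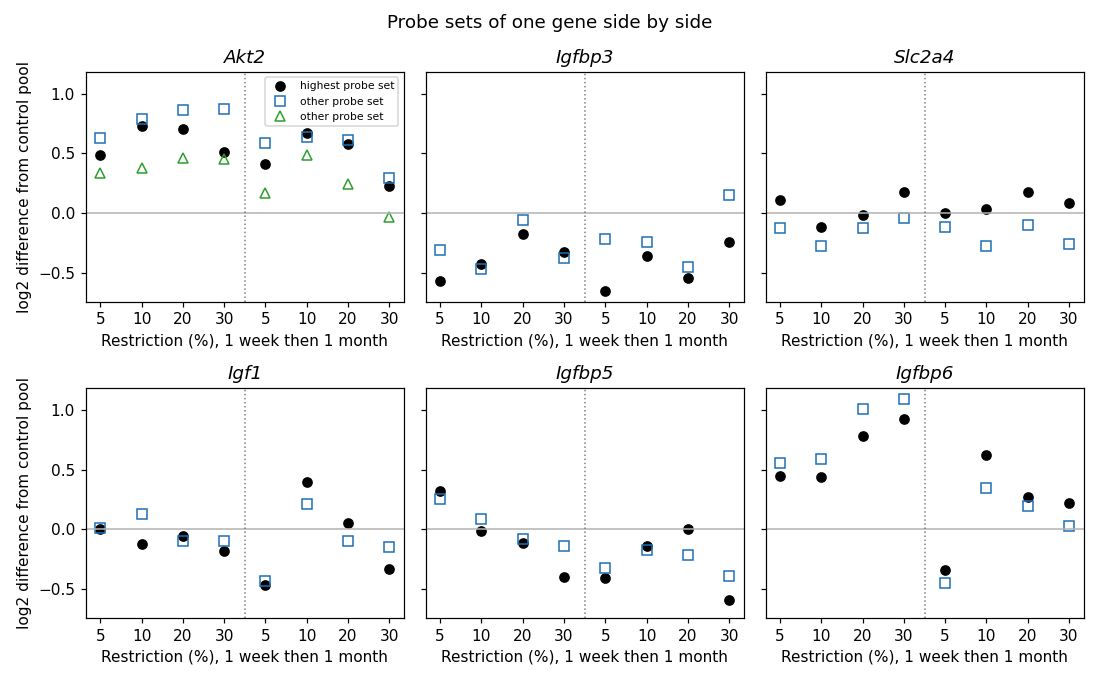
Log2 difference from the control pool for the tested probe sets of 6 genes, at 5, 10, 20 and 30% restriction for 1 week (left of the dotted line) and 1 month (right). The probe sets of Akt2 and Igfbp6 follow each other, and those of Slc2a4 lie on different sides of 0 in 5 of 8 pools.

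Around these 10 genes, 125 other genes of the pathway were listed by role, of which 95 were tested. On the slope over both durations 10 of the 95 rose and 1 fell (11.6%, against 9.4% of all probe sets), and their median slope was -0.0098, against -0.011 over all probe sets. For restricted minus control 7 were higher and 2 lower (9.47%, against 5.93%), with a median of 0.0015 against -0.026. These counts moved with single pools, and so did the counts over all 9520 probe sets, which were 895 and 565 with all pools. Leaving out a pool in turn gave 1 (30% at 1 week, control at 1 month) to 29 (10% at 1 month) for the slope. Over all probe sets these fits called 110, 160 and 1921. Only the pathway count without the 10% pool at 1 week stayed within 1.5 times of 11. For restricted minus control, leaving out a restricted pool gave 3 (20% at either duration, 30% at 1 month) to 25 (5% at 1 month). Over all probe sets these fits called 208, 216, 354 and 1980. Only the pathway count without the 5% pool at 1 week stayed within 1.5 times of 9. With a control left out 1 control remained, and no count is given. Without the 2 pools that held pancreas genes the count for the slope was 0, where 15 of all probe sets passed, and 1 control remained for restricted minus control. With the lymphocyte score as a covariate the counts for the slope and for restricted minus control were both 1 (192 and 63 of all probe sets). With the adipocyte score they were 8 for the slope and 0 for restricted minus control (444 and 0 of all probe sets). Of the pathway genes named below, the calls that held without any 1 pool were the slope of Sh2b2 and the differences between durations of Igfbp4 and Prlr, and every other call was lost without at least 1 of the 10 pools.

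Near the receptor 10 genes were tested, and 1 rose and 1 fell with dose. Sh2b2, an adaptor that binds the activated insulin receptor, was at 127, 174, 181, 277 and 302 from control to 30% at 1 week and 92.7, 126, 165, 194 and 210 at 1 month. It climbed at every step, by 0.39 ± 0.048 per 10% (adjusted p = 0.00222, limma), and passed under 21 of 22 alternatives. Grb2, the adaptor toward Ras, had a slope of -0.14 ± 0.039 (adjusted p = 0.0477, limma), which passed under 6 of 22.

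In the PI3-kinase and Akt arm 3 of 13 tested genes rose with dose. Pde3b, the phosphodiesterase through which insulin lowers cAMP and restrains lipolysis, was at 123, 223, 315, 344 and 357 at 1 week and 155, 254, 376, 388 and 381 at 1 month. It was higher in restricted pools by 1.23 ± 0.19 (2.35-fold, adjusted p = 0.00777, limma) with a slope of 0.41 ± 0.092 (adjusted p = 0.0226, limma). Gys1, glycogen synthase, had a slope of 0.25 ± 0.071 (adjusted p = 0.0496, limma), which was 0.16 without the control at 1 week (adjusted p = 0.107, limma), and Foxo4, a forkhead factor that Akt phosphorylates, of 0.16 ± 0.043 (adjusted p = 0.0455, limma).

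Among 13 tested brakes on the pathway, 1 rose with dose. Grb10, an adaptor that binds the insulin and IGF-1 receptors and dampens their signal, was at 155, 260, 253, 312 and 378 at 1 week and 134, 189, 237, 245 and 262 at 1 month. Its slope was 0.32 ± 0.058 (adjusted p = 0.011, limma). Inpp5k, a phosphatase of PI3-kinase products, was higher in restricted pools by 0.49 ± 0.097 (adjusted p = 0.0203, limma); it, Klf15, Prlr, Flot1, Pik3ca, Pck1, Igf2, Ins1 and Ins2 are named after their values were seen.

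Of 15 genes of transporter traffic and glucose entry, Stx4, the membrane protein at which transporter vesicles fuse (0.15 ± 0.037 per 10%, adjusted p = 0.0279, limma), and Trip10 (0.14 ± 0.039, adjusted p = 0.0472, limma) rose. Of 15 genes of the mTOR branch, those that rose were the translation repressors Eif4ebp1 (0.25 ± 0.048, adjusted p = 0.0133, limma) and Eif4ebp2 (0.14 ± 0.038, adjusted p = 0.0453, limma). Of 8 tested genes of the Ras branch, 0 passed for the slope and 2 were lower in restricted pools, Nras by -0.60 ± 0.14 (adjusted p = 0.034, limma) and the MAP kinase phosphatase Dusp6 by -0.59 ± 0.14 (adjusted p = 0.036, limma). Of 8 transcripts that insulin or FoxO factors control, Txnip, which restrains glucose uptake, rose by 0.19 ± 0.037 per 10% (adjusted p = 0.015, limma), and Klf15, a fasting-induced transcription factor, was higher by 0.57 ± 0.14 (adjusted p = 0.0363, limma), but by 0.35 without the control at 1 week (adjusted p = 0.414, limma), and passed under 8 of 21 alternatives.

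**Figure D5:**
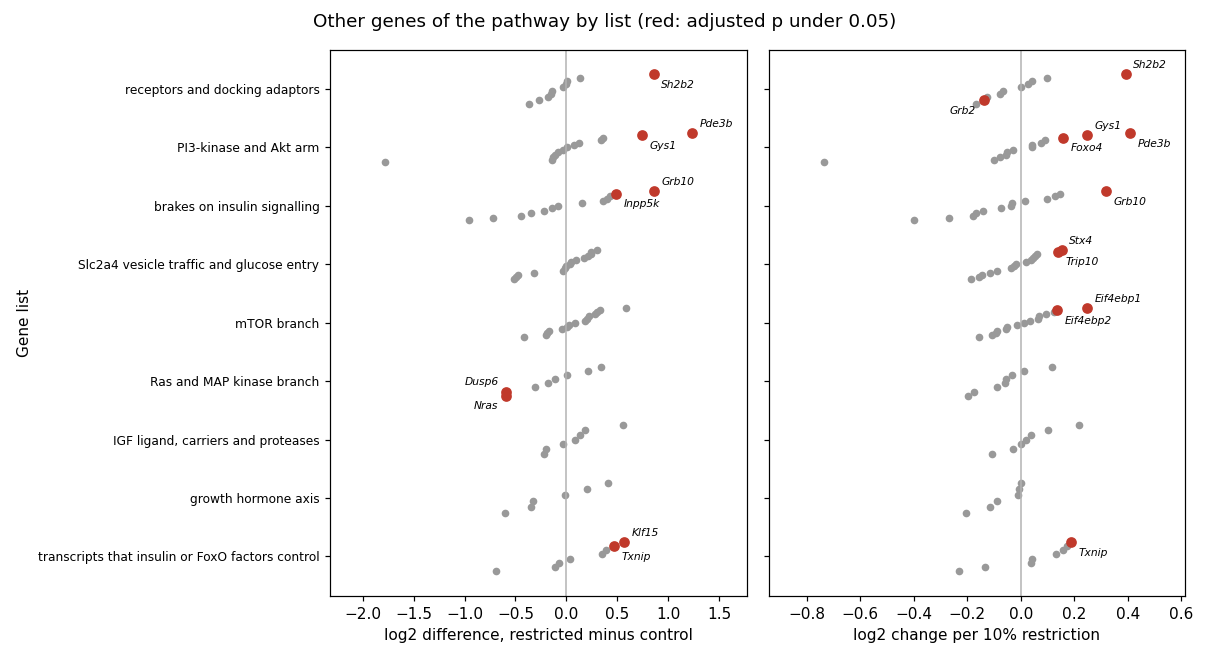
limma estimates of the 95 tested pathway genes other than the 10, by list, as restricted minus control (left) and change per 10% of restriction (right), both log2. Red points passed an adjusted p of 0.05; Pde3b (1.23) is the highest of the PI3-kinase list in the left panel and Sh2b2 (0.39 per 10%) the highest of the receptor list in the right, the lowest estimates of the PI3-kinase list (-1.78 and -0.74) did not pass, and no gene of the IGF or growth hormone lists passed in either panel.

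Of 7 tested IGF ligands, carriers and proteases and 6 genes of the growth hormone axis, 0 passed for dose or restriction (limma). In the comparison of durations that follows, time on the diet and age of the rats cannot be told apart. Between durations 2 of the 95 were higher at 1 month, Flot1 and Pck1, and 6 were lower, Sh2b2, Pik3ca, Eif4ebp2, Igf2, Igfbp4 and Prlr (8.42%, against 4.96%). This count of 8, where 472 of the 9520 probe sets passed, was 3 with chips centred on their median (68 probe sets in all). It was 26 without replicate 1 chips (1575 in all) and 43 without replicate 2 chips (4017 in all). It was 1 without the 2 pools that held pancreas genes (79 in all) and 2 to 9 without a pool (89 to 438 in all). It was 2 when any 1 of the 4 restricted pools at 1 week was left out, 3 without the 20% pool at 1 month, and 5 without the control or the 30% pool at 1 month. Igfbp4, another IGF carrier, was at 206 and 173 in the controls of 1 week and 1 month, at 185 to 247 in restricted pools at 1 week and at 102 to 142 at 1 month, a difference of -0.75 ± 0.12 (adjusted p = 0.0104, limma). Igf2 was lower by -0.56 ± 0.11 (adjusted p = 0.0217, limma), with 61.4 to 86.0 at 1 week and 43.1 to 63.7 at 1 month. It was -0.97 without replicate 1 chips and -0.15 without replicate 2 chips (adjusted p = 0.433, limma), and passed under 15 of 21 alternatives. The insulin transcripts themselves were at 132 (Ins1) and 68.4 (Ins2) in the control pool at 1 week that held pancreas genes, and at 36.8 or less and 5.60 or less in the other 9 pools.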

How the data were processed

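MAS5 signals of 20 chips (10 pools) were analysed. The authors deposited linear intensity values, each the MAS5 summary of a probe set by Affymetrix software. Detection calls were not used here. Of 15923 probe sets, 57 array controls were left out. The platform table gave 12783 of the other 15866 a single symbol, and 12748 were matched to the gene table. Signals under 1 were set to 1 (0.996% to 3.87% of a chip) and log2 was taken. Tests covered the 9520 probe sets whose mean log2 signal reached the 40th percentile.

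Pool means were fitted with limma 3.58.1 in R 4.3.3 (lmFit, eBayes with intensity trend), two-sided, with Benjamini-Hochberg adjustment over all tested probe sets and a threshold of 0.05. Fits held the duration and the restriction level (per 10%), each duration's own level, or restricted against control. A fit of restriction by duration was added after the data were seen. The spread is that between pools over dose and duration, since each group is 1 pool. Scripts were tested on simulated data. Genes named were the 10 members, up to 4 genes per pathway list of lowest adjusted p among those past the threshold on the slope (else the 2 of largest slope), and 3 genes most like each member. The rule also gave Stc1, Stat5a and Stat5b, whose slopes did not pass and which are not described above. Genes named outside this rule, after their values were seen, were Inpp5k, Klf15, Prlr, Flot1, Pik3ca, Pck1, Igf2, Ins1, Ins2 and single cell type markers. The members, lists and motifs were chosen with earlier results of these data known.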

Additional observations from a re-analysis of the deposited data

How the results depend on the processing

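Each fit was repeated with other scaling, floors and filters, with single chips, without each pool, with the replicate number as a block, and with marker scores as covariates. For restricted minus control 2 of the 8 tested members passed (Insr and Akt2). Over all 9520 probe sets 565 passed. Without the filter on low signals the count was 1 (Akt2, 374 probe sets in all). It was 1 without replicate 1 chips (Akt2, 258 in all) and 1 without replicate 2 chips (Insr, 435 in all). With the lymphocyte score it was 0 (63 in all). With the adipocyte score, chosen after the data were seen, it was 0, and 0 of the 9520 probe sets passed. Without the 2 pools that held pancreas genes 1 control remained, with Insr at 0.59 and Akt2 at 0.47. Leaving out a restricted pool gave 0 to 4, where 208 to 1980 probe sets passed in all. Over 21 alternatives Insr kept its direction in 21 and passed in 12, and Akt2 kept its direction in 20 and passed in 13. With the adipocyte score Akt2 was at -0.031 and Igfbp6 at -0.29, with the lymphocyte score Slc2a4 was at -0.0046, and with chips centred on their medians Igf1 was at 0.027, each against the direction reported. The estimate of Igf1 ran from -1.06 to 0.027 over the 21 alternatives, against -0.090 as first fitted. That of Igfbp5 ran from -0.62 to -0.051, against -0.17. Causes of these changes were not tested.

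In the replicate block fit, 20 chips were used with the pool as a random block. The 2 chips of a pool are technical repeats, so this fit holds no more pools than the pool means do. For restricted minus control it called the same 2 and added Igfbp3 (adjusted p = 0.0117, limma). It called 2 members for the slope over both durations (Igfbp5 and Igfbp6), 1 for the slope at 1 week (Igfbp6) and 1 for 1 month minus 1 week (Igf1), where the pool means gave 0. It also called more of the 9520 probe sets than the pool means did. These were 1695 against 565 for restricted minus control and 1729 against 895 for the slope over both durations. They were 698 against 28 for the slope at 1 week and 900 against 472 for 1 month minus 1 week. The numbers mark chips of the same pools, and chips of the same number deviated together only weakly (r from 0.016 to 0.178 at 1 week and -0.087 to 0.225 at 1 month over pairs of pools).

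For the slope over both durations 1 member passed with levels coded 0 to 4, where 1943 of the 9520 probe sets passed, against 895 as first fitted. Without a pool 0 to 1 member passed, where 110 to 1921 probe sets did. The slope of Akt2 was -0.0046 with the lymphocyte score and -0.025 with the adipocyte score. That of Igfbp3 was 0.024 with centred chips, 0.021 without the pancreas pools, 0.018 with the lymphocyte score and 0.058 with the adipocyte score, and -0.065 to 0.035 without a pool. That of Pik3r1 was -0.035 to 0.15 without a pool. The slope at 1 week gave 0 to 1 without a pool, where 0 to 320 probe sets passed in all, against 28 as first fitted. For 1 month minus 1 week the counts were 4 without replicate 1 chips (1575 probe sets in all) and 1 without replicate 2 chips (4017). They were 1 with the lymphocyte score (929), 1 with the adipocyte score (680) and 0 to 1 without a pool (89 to 438). As first fitted 0 members and 472 of the 9520 probe sets passed. Here the scale of the 1-week chip sets enters, and without replicate 2 chips Igfbp5 (0.12), Pik3ca (0.11) and Eif4ebp2 (0.14) turned upward, and without replicate 1 chips Flot1 was at -0.090. With 1 pool a group and low signals for Insr, Irs1, Pik3r1 and Igf1r, effects under the spread between pools were not detectable.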

Other observations

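Over the 10 pools, with the mean of each duration removed, the genes most like the other members among 7113 were Sec24b (r = 0.977), Bsg (0.972) and Ccdc149 (0.968) for Igfbp6, Cd300c2 (0.965), Rab3b (0.936) and Commd10 (0.93) for Igfbp5, Zfp697 (0.954), Ppic (0.893) and Rarres2 (0.891) for Igf1, and Jak2 (0.905), Cdc34 (0.9) and Dnajb4 (0.899) for Igfbp3. For Slc2a4 they were Slc20a2 (0.887), Ndufaf3 (0.884) and Flad1 (0.876), and for Pik3r1 Tnfsf13 (0.917), Mrpl20 (0.887) and Nol6 (0.879). For the genes read under the signal limit they were Crlf2 (0.938), Dlgap5 (0.922) and Unkl (0.915) for Irs1 and Hdac10 (0.93), Kat5 (0.883) and Hspb6 (0.869) for Igf1r. Among the 10 members, the pair of most opposite pattern was Irs1 and Igf1 (r = -0.865). These are descriptions of 10 points chosen as the highest of many.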
